A study of Mus musculus with 10 samples.

Results

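A set of 6 VEGF family genes was followed in cultured mouse peritoneal macrophages: the receptor Flt1, the ligands Vegfa, Vegfb and Pgf, and the co-receptors Nrp1 and Nrp2. They are 6 of the 53465 genes in the count table, and all 6 were found in it. They were chosen by family membership, and also by values: the difference of Flt1 between the genotypes in these same libraries was already known. Differences of the 6 genes between genotypes are therefore described with their errors and not tested. Mac-GsαKO (KO, 5 libraries) lacks Gsα in macrophages per its name, and CTR (5 libraries) are the controls. Gnas encodes Gsα, through which stimulatory receptors switch on adenylyl cyclase and raise cAMP. All mice were 6 to 8 weeks old, and the macrophages of both genotypes were kept in serum-containing medium with no further treatment. The sources used here do not name the driver of the deletion or the strain. Whether the libraries of a genotype come from different mice is not stated, and every error and p-value here covers spread among libraries, which may be technical. In bulk RNA, fewer cells of a type and less RNA per cell cannot be told apart.

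VEGF ligands are secreted dimers that bind receptor tyrosine kinases at the cell surface. VEGF-A, the main driver of vessel growth, binds both Flt1 and Kdr, whereas VEGF-B and placental growth factor, the product of Pgf, bind Flt1 and not Kdr. Flt1 binds VEGF-A tightly but signals weakly through its kinase, a soluble form made from shorter transcripts traps ligand, and the membrane form is the VEGF receptor known for guiding the migration of monocytes and macrophages. The neuropilins Nrp1 and Nrp2 have no kinase domain. They hold VEGF ligands beside the receptors and also bind secreted semaphorins together with plexins. Macrophages are a known source of VEGF-A in tissue, and oxygen shortage raises Vegfa through hypoxia-inducible factors.

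Libraries held 16877249 to 19235777 counts in KO and 15664243 to 18028974 counts in CTR. Expression is given as CPM, that is counts divided by the TMM-scaled size of each library. A count of 0 leaves room for up to 3 counts, which came to 0.154 to 0.202 CPM, for counting error only. Gnas averaged 40.2 ± 2.62 CPM in KO and 434 ± 62.3 CPM in CTR (SD, n = 5 each), a log2 fold change of -3.43 (SE 0.11, edgeR quasi-likelihood adjusted p = 9.17e-09). Over all genes tested, 1.83% were called higher in KO (adjusted p under 0.05) and 2.11% lower. All 15 core macrophage genes passed the filter on low counts, 1 was called higher in KO (Itgam) and 1 lower (Lyz2). They summed to 43200 to 46900 CPM in KO and 61900 to 76400 CPM in CTR, mostly from Lyz2 and Ctsd. Of the 15 genes, 8 had higher and 7 had lower values in KO, with a median log2 fold change of 0.07. The pair with the highest CPM among them was the lysozyme gene Lyz2, at 9230 ± 517 CPM in KO and 26500 ± 3800 CPM in CTR (log2 fold change -1.52, SE 0.10, adjusted p = 2.03e-05), with the protease gene Ctsd, at 21500 ± 1760 CPM in KO and 26400 ± 2240 CPM in CTR (adjusted p = 0.0831). On the first principal component of log2 CPM, with 26.3% of the variance, KO libraries lay between 11.6 and 28.7 and CTR 1 to CTR 3 between -18.5 and -6.85. Farther out, both at -34.7, were CTR 4 and CTR 5. The second component set these 2 apart, with CTR 4 at -46.7 and CTR 5 at 9.46, against 15.7, 25.6 and 17.5 for CTR 1 to CTR 3 and -10.9 to 7.82 for KO. Values without CTR 4 and CTR 5 are given for the VEGF family and pathway genes named below where they change a call or move a fold change by over 1.5 times.

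Flt1 (ENSMUSG00000029648) was a low-abundance transcript that was higher in every KO library than in any CTR library. It stood at 6.54, 4.605, 3.96, 6.52 and 8.43 CPM in KO 1 to KO 5, against 1.23, 2.39, 0.902, 2.565 and 0.374 CPM in CTR 1 to CTR 5. The lowest KO library, KO 3, was above the highest control, CTR 4. These values rest on 113, 90, 68, 116 and 147 counts in KO and on 22, 41, 16, 38 and 6 counts in CTR. Flt1 averaged 6.01 ± 1.77 CPM in KO and 1.49 ± 0.953 CPM in CTR (SD, n = 5 each), a 4.03-fold ratio of means and a log2 fold change of 2.01 (SE 0.40). Relative to the mean, libraries varied less in KO, with a coefficient of variation of 29.5%, than in CTR, with 63.9%. The log2 fold change stayed between 1.77 (without CTR 5) and 2.29 (without CTR 4) over the 20 other settings tried, and was 2.0 without CTR 4 and CTR 5. Counts per gene do not separate the soluble from the membrane-bound form.

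Of the 6 members, 5 had enough counts to enter the edgeR fit, and 1 of these, Flt1, had an adjusted p under 0.05, in the direction of higher in KO. Over all 13203 genes of that fit, 1.83% were called higher in KO and 2.11% lower. The same member was the only one of the 6 whose libraries did not overlap between genotypes, which held for 7.8% of all genes tested. Because the choice of members used this contrast, nothing is read from these counts. Flt1 was not called when CTR 3, KO 1, KO 2 or KO 4 was left out, with log2 fold changes of 1.88, 1.98, 2.10 and 1.98.

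**Figure D1:**
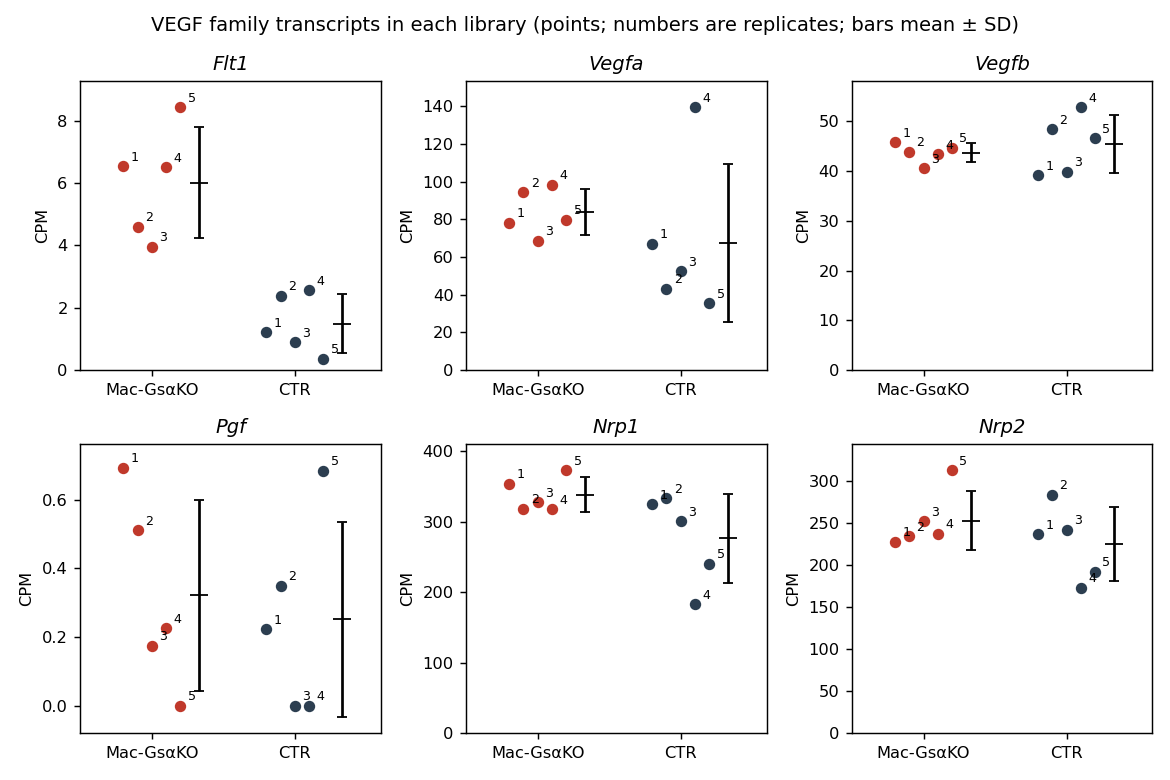
CPM of the 6 VEGF family members in each library; points are libraries numbered by replicate, and bars give the mean ± SD of the 5 libraries of Mac-GsαKO or CTR. Flt1 is the gene whose points do not overlap between genotypes, CTR 4 is the highest Vegfa library at 139 CPM and the lowest Nrp1 library at 183 CPM, and Pgf lies under 0.7 CPM throughout.

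The 250 bases before the annotated starts of Flt1 and Vegfa are shown because Flt1 is the receptor that differed most between genotypes and Vegfa is the ligand shared by Flt1 and Kdr. Both are RefSeq sequences of GRCm38.p6, an earlier build than the GRCm39 named for the authors' data, written 5′ to 3′ on the gene's strand. Flt1 lies on the minus strand at chr5:147726012-147726261 and the first start of Vegfa on the minus strand at chr17:46032378-46032627. Capitals mark exact matches, on either strand, to the cAMP response element TGACGTCA, the TATA box TATAAA and the GC box GGGCGG.
Flt1: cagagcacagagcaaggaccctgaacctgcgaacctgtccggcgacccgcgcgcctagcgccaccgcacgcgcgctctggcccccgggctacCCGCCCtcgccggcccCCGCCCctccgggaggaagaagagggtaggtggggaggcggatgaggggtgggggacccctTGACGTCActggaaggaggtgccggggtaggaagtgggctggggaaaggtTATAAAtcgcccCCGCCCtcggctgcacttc
Vegfa: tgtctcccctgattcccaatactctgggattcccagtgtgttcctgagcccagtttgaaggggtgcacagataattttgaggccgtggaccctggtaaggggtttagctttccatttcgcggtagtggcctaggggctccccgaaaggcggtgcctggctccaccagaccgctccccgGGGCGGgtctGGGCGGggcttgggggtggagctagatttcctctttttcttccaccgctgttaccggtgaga
The Flt1 window held a single TGACGTCA, the sequence that CREB binds in cAMP-responsive promoters, 81 to 74 bases before the start. It also held TATAAA 31 to 26 bases before the start and 3 GC boxes, read as CCGCCC on this strand, the nearest of them 19 to 14 bases before the start. The Vegfa window held 2 GC boxes and neither of the other motifs. ACGTG, a form of the core of the site bound by hypoxia-inducible factors, was searched as well and was in neither window. Other forms of that core were not searched, so their presence in these windows is not described. The window before a second annotated Vegfa start held 1 ACGTG, at -211 from that start, and 1 GC box. That window, at chr17:46025164-46025413, lies downstream of the first start, so it is not sequence before the gene. Sites farther than 250 bases before a start were not searched. Among 32851 RefSeq promoter windows of the same length, 1.55% held TGACGTCA, 12.4% TATAAA, 32.7% GGGCGG and 16.6% ACGTG on either strand. All 6 members and the 4 other family genes had windows, 12 in all, and TGACGTCA was in no window but that of Flt1. These matches describe the sequence and were not tested as binding sites.

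The other receptors of the family did not share the direction of Flt1. Kdr, the main signalling receptor of endothelial cells (ENSMUSG00000062960), stood at 6.25, 5.17, 7.98, 6.07 and 4.76 CPM in KO 1 to KO 5, against 11.0, 8.64, 7.33, 4.86 and 7.66 CPM in CTR 1 to CTR 5. The ranges overlapped, and CTR 4, with the highest Flt1 among controls, had the lowest Kdr among them. The log2 fold change of Kdr was -0.39 (SE 0.21, edgeR adjusted p = 0.302). Flt4, the receptor of lymphatic endothelium, averaged 1.01 ± 0.451 CPM in KO and 1.68 ± 0.845 CPM in CTR (log2 fold change -0.73, SE 0.39, adjusted p = 0.296). The value of Kdr was -0.24 without CTR 1, and that of Flt4 was -0.40 without CTR 5 and -0.35 without CTR 4 and CTR 5. Neither passed the threshold under any of the 20 other settings tried.

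Set on a scale of CPM per kilobase of gene length, the 3 receptors summed to similar levels, 0.962 to 1.3 in KO and 0.854 to 1.31 in CTR, while their makeup differed. Flt1 made up 38.2%, 33.2%, 21.1%, 37.6% and 51.1% of the sum in KO 1 to KO 5, against 6.51%, 13.3%, 6.27%, 20.9% and 2.21% in CTR 1 to CTR 5. KO 3 and CTR 4 were nearly level and the other libraries lay well apart. Kdr accounted for 53.8 ± 7.32% of the sum in KO and 72.3 ± 10.4% in CTR (SD, n = 5 each). The ratio of Flt1 to Kdr ran from 0.332 to 1.19 in KO and from 0.0327 to 0.353 in CTR. These shares carry the Flt1 counts that chose the gene and are given as a description.

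**Figure D2:**
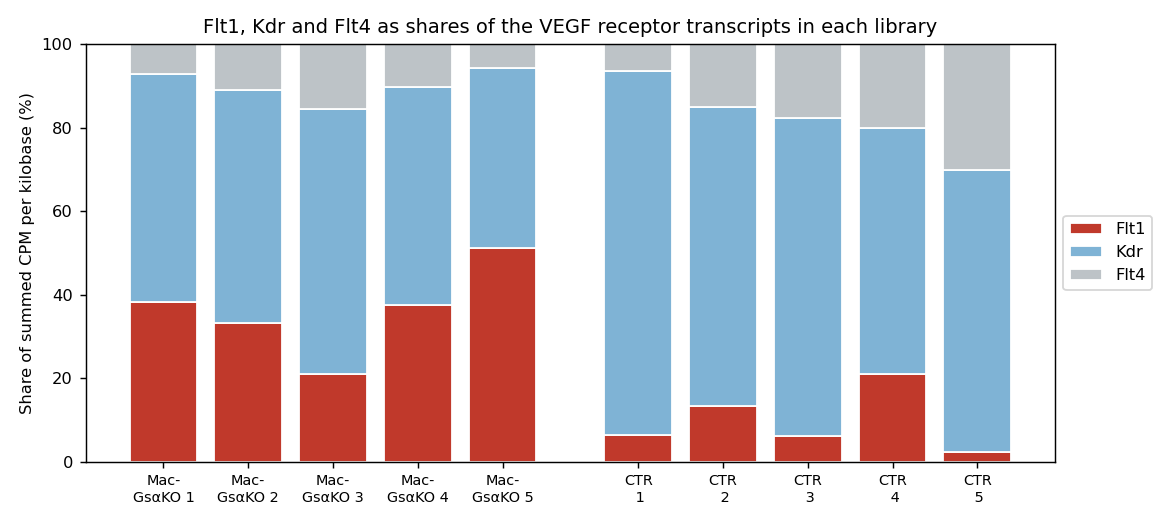
Share of Flt1, Kdr and Flt4 in the summed CPM per kilobase of the 3 receptors (vertical axis, %), 1 bar per library with Mac-GsαKO on the left and CTR on the right. The red Flt1 part reaches 21.1% to 51.1% in Mac-GsαKO and 2.21% to 20.9% in CTR, and the lowest Mac-GsαKO bar stands just above the highest CTR bar.

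Vegfa (ENSMUSG00000023951) was expressed above all 3 receptors per length, at 10.5 CPM per kilobase in KO and 8.43 in CTR, and 4 of the 5 controls lay below every KO library. It stood at 78.2, 94.25, 68.7, 98.4 and 79.7 CPM in KO 1 to KO 5, against 67.0, 43.3, 52.5, 139 and 35.55 CPM in CTR 1 to CTR 5. CTR 4 was the highest of all 10 libraries and alone made the genotypes overlap. The means were 83.9 ± 12.2 CPM in KO and 67.6 ± 41.9 CPM in CTR, with a log2 fold change of 0.31 (SE 0.31). That value was 0.76 without CTR 4, 0.15 without CTR 5 and 0.63 without both, so it moved with the control libraries included. Splice forms of Vegfa, which differ in how they bind matrix and neuropilins, are not separated in gene counts.

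Vegfb (ENSMUSG00000024962), the ligand of Flt1 linked to fatty acid handling and cell survival, was the steadiest member. Its values were 45.7, 43.85, 40.6, 43.3 and 44.7 CPM in KO 1 to KO 5, against 39.2, 48.4, 39.85, 52.8 and 46.6 CPM in CTR 1 to CTR 5. Every KO library lay inside the control range. The log2 fold change was -0.06 (SE 0.10), and it lay between -0.10 and 0.04 under the other settings. Without CTR 4 and CTR 5 it was 0.04.

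Pgf (ENSMUSG00000004791), which encodes placental growth factor, was close to the limit of detection and did not enter the fit. It had 12, 10, 3, 4 and 0 counts in KO 1 to KO 5, against 4, 6, 0, 0 and 11 counts in CTR 1 to CTR 5. Both genotypes held libraries with no count and libraries with 10 or more, and a difference was not detectable at this depth. The ligands outside the members were also scarce: Vegfc, a ligand of Flt4, averaged 0.886 ± 0.0928 CPM in KO and 1.52 ± 0.968 CPM in CTR (log2 fold change -0.77, SE 0.37, adjusted p = 0.238). CTR 5 had the highest Vegfc, at 3.175 CPM, and the log2 fold change was -0.32 without it and -0.47 without CTR 4 and CTR 5. Vegfd had 24 counts in all libraries together.

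Within the ligands that bind Flt1, Vegfa made up 31.2% to 37.8% of the summed CPM per kilobase in KO and 16.9% to 41.5% in CTR, with nearly all of the rest being Vegfb. The share of Pgf was at most 0.469% in KO and 0.549% in CTR. The summed ligands exceeded Flt1 by a factor of 52.4 to 101 in KO and 168 to 1010 in CTR, so ligand transcripts far outnumbered those of this receptor in each library. The widest factor came from CTR 5, which had 6 Flt1 counts.

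Levels of both neuropilins overlapped between genotypes. Nrp1 (ENSMUSG00000025810), the co-receptor of VEGF-A and of semaphorin 3A, stood at 354, 319, 328, 318 and 374 CPM in KO 1 to KO 5, against 325, 333.5, 300.5, 183 and 241 CPM in CTR 1 to CTR 5. The log2 fold change was 0.29 (SE 0.15), and it was 0.18 without CTR 4 and 0.08 without CTR 4 and CTR 5. CTR 4 and CTR 5 were the lowest of all 10 libraries.

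Nrp2 (ENSMUSG00000025969), the co-receptor of VEGF-C and of other class 3 semaphorins, stood at 228, 234, 252, 237 and 313 CPM in KO 1 to KO 5, against 237, 284, 242, 173 and 192 CPM in CTR 1 to CTR 5. Apart from KO 5, every KO library lay inside the control range. The log2 fold change was 0.17 (SE 0.14), and it was -0.01 without CTR 4 and CTR 5. The ratio of Nrp1 to Nrp2 per length was 1.45 to 1.89 in KO and 1.28 to 1.66 in CTR, so Nrp1 was the more abundant in every library. Annotated neighbours overlap both genes (Mir1903 in Nrp1, Gm29083 on the opposite strand and Gm37121 in Nrp2), and the sources used here do not state whether counting used strand.

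**Figure D3:**
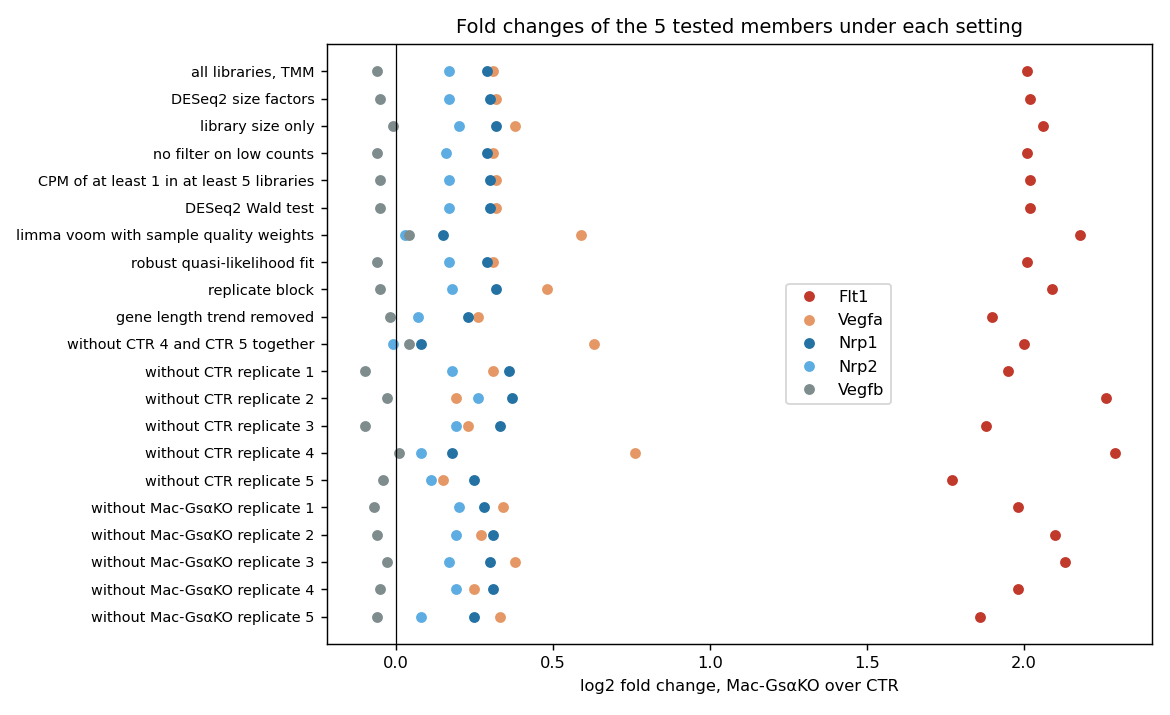
Log2 fold change (Mac-GsαKO over CTR, horizontal axis) of the 5 members that entered the fit, 1 point per gene for the fit of all libraries with TMM scaling (top line) and each of the 20 other settings. Flt1 stays between 1.77 and 2.29, while Vegfa moves between 0.15 and 0.76 with the control libraries included.

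Ordered by level per length over all 10 libraries, the members ran from Nrp1 at 26.85 CPM per kilobase through Vegfb at 20.7, Nrp2 at 17.2, Vegfa at 9.45 and Flt1 at 0.261 to Pgf at 0.0601. The order of the genotype means was the same in KO and in CTR. Neighbours were compared within libraries by two-sided exact sign-flip permutation of the log2 ratio (10 libraries, 1024 arrangements, smallest possible p = 0.00195), adjusted over the 5 pairs. The order, and so the direction of each pair, was taken from these same libraries, so the p-values do not test it independently. Pairs with Flt1 also carry the values that chose the members. The step from Vegfa to Flt1 was the widest, at 5.56 on the log2 scale (SD 1.12) in 10 of 10 libraries (adjusted exact permutation p = 0.00977). Nrp2 exceeded Vegfa by 0.95 ± 0.68 in 9 of 10 libraries (adjusted exact p = 0.0146), all but CTR 4. Flt1 exceeded Pgf by 2.30 ± 2.44 in 9 of 10 libraries (adjusted exact p = 0.022), all but CTR 5. In CTR 3, CTR 4 and KO 5, which had 0 Pgf counts, the 0.5 counts added set the Pgf level in this ratio. Nrp1 exceeded Vegfb by 0.36 ± 0.40 in 8 of 10 libraries (adjusted exact p = 0.0352), and each fit without a KO library, or without CTR 1, CTR 2 or CTR 3, gave 0.32 to 0.35 with adjusted exact p between 0.0625 and 0.0664. With the longest GENCODE M21 transcript as the length, that difference was 1.26 in 10 of 10 libraries (adjusted exact p = 0.00488). Vegfb exceeded Nrp2 by 0.28 ± 0.32 in 9 of 10 libraries (adjusted exact p = 0.0163), but with the longest transcripts the difference was -0.02 (adjusted exact p = 0.854). The authors' gene lengths of 2154 bases for Vegfb and 13894 for Nrp2 exceed those transcripts, of 1281 and 6723 bases.

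**Figure D4:**
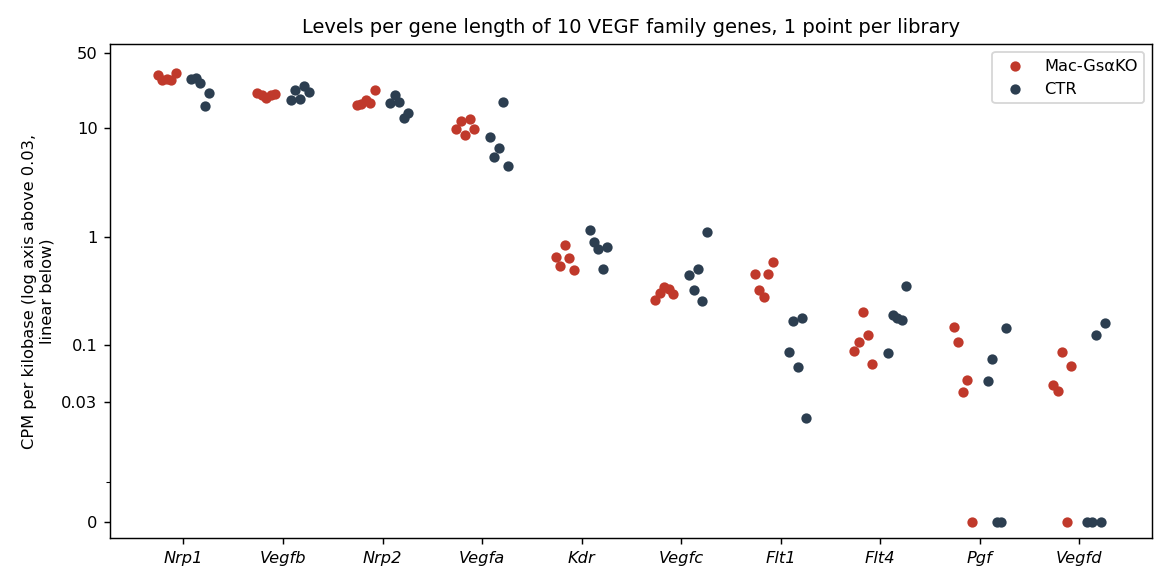
CPM per kilobase of gene length of the 6 members and the 4 other VEGF family genes (vertical axis, logarithmic above 0.03 and linear below), 1 point per library, Mac-GsαKO to the left of CTR for each gene. Nrp1, Vegfb, Nrp2 and Vegfa form a high set, with means from 9.45 to 26.85, and Flt1 has a mean of 0.261 with its Mac-GsαKO points above its CTR points.

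Genes of the VEGF pathway outside the family were taken from lists chosen by function. By edgeR, 1.83% of all genes tested were called higher in KO and 2.11% lower. Of 48 genes that carry signals from VEGF receptors, 45 were tested, 2 were higher in KO, none was lower, and the median log2 fold change was 0.15, against -0.0058 for all genes tested. The 2 genes were Nfatc2, a calcineurin-dependent transcription factor, and Ptprj, a receptor phosphatase that acts on Kdr and on Src kinases. Nfatc2 averaged 21.6 ± 2.10 CPM in KO and 12.3 ± 3.09 CPM in CTR without overlap (log2 fold change 0.81, SE 0.16, adjusted p = 0.0205). Its adjusted p came to at most 0.0579 when a library was left out, and the call ended without KO 1, KO 2, KO 4 or CTR 3. Ptprj averaged 159 ± 14.7 CPM in KO and 108 ± 24.7 CPM in CTR (log2 fold change 0.56, SE 0.14, adjusted p = 0.0489), and leaving out any library but CTR 2 or CTR 4 ended its call, with adjusted p up to 0.129. Its call was also lost with library size only (adjusted p = 0.0544), without a filter (0.0844) and without CTR 4 and CTR 5 (0.0739). At an unadjusted p under 0.05, 9 genes of the list were higher and none was lower, where 10.1% of all genes tested were higher and 11.9% lower. The number called higher was 7 by DESeq2 and 9 by limma voom, and none was lower by either tool. Over all genes with an adjusted p, DESeq2 called 4.22% higher and 4.72% lower, and limma voom 7.77% higher and 6.77% lower.

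Among 24 genes of oxygen sensing and Vegfa transcription, 22 were tested and none passed by edgeR, with a median log2 fold change of 0.16. At an unadjusted p under 0.05, 4 were higher and 1 was lower, shares to be read against the 10.1% and 11.9% of all genes. DESeq2 called 2 higher and 1 lower, and limma voom called 4 higher and none lower. Egln1, the prolyl hydroxylase that marks hypoxia-inducible factors for breakdown, had the lowest p of the list, at 144 ± 31.0 CPM in KO and 90.3 ± 27.5 CPM in CTR (log2 fold change 0.68, SE 0.20, adjusted p = 0.0767). It was called without CTR 4 (log2 fold change 0.87, adjusted p = 0.015), without CTR 4 and CTR 5 (0.81, adjusted p = 0.0265), with library size only (adjusted p = 0.0432), by DESeq2 (0.0166) and by limma voom (0.00719). Leaving out other single libraries gave an adjusted p of up to 0.18. Elob, a subunit of the VHL ubiquitin ligase, followed at -0.41 on the log2 scale (SE 0.13, adjusted p = 0.0929). It was called by DESeq2 (adjusted p = 0.0468) and with the gene length trend removed (0.042), and came to -0.17 without CTR 4 and CTR 5 (adjusted p = 0.185).

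The other partners of the neuropilins, which are semaphorins, plexins, Gipc1 and L1cam, gave no call: 11 of 16 were tested, 6 had higher and 5 had lower values in KO, and the median log2 fold change was 0.05. By edgeR 1 was higher and 1 was lower at an unadjusted p under 0.05, where 10.1% of all genes tested were higher and 11.9% lower. DESeq2 called none, and limma voom called 1 higher, against 7.77% of all genes. Plxnd1, a plexin that takes part in vessel guidance, stood at 305 ± 12.6 CPM in KO and 235 ± 47.3 CPM in CTR (log2 fold change 0.38, SE 0.12, adjusted p = 0.105). Its difference was 0.20 without CTR 4 and CTR 5. Sema3c, a secreted ligand of neuropilin and plexin complexes, differed by -1.02 on the log2 scale (SE 0.45, adjusted p = 0.208).

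Calls among other angiogenic and anti-angiogenic factors went both ways. Of 37 genes 30 were tested, 1 was higher and 3 were lower in KO. Over all genes tested, 1.83% were called higher and 2.11% lower. The median log2 fold change of the list was -0.07. Thbs1, the angiogenesis inhibitor thrombospondin, averaged 52.3 ± 25.7 CPM in KO and 269 ± 113 CPM in CTR without overlap (log2 fold change -2.36, SE 0.36, adjusted p = 0.00846). It passed under each of the 20 other settings. Mmp14, a membrane metalloproteinase that cuts matrix, averaged 74.1 ± 17.2 CPM in KO and 146 ± 34.8 CPM in CTR (log2 fold change -0.98, SE 0.19, adjusted p = 0.0204), and its call was lost without CTR 3, KO 1 or KO 2, where adjusted p reached 0.0582. Ang, which encodes angiogenin, belongs to a family of related genes, and reads shared among them were not examined. It averaged 1.51 ± 0.358 CPM in KO and 3.85 ± 1.47 CPM in CTR (log2 fold change -1.35, SE 0.30, adjusted p = 0.0332). Its call was lost without a filter (adjusted p = 0.0575) and without any library but CTR 4 or CTR 5, with adjusted p up to 0.0856.

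The gene called higher was Pdgfb, a growth factor of the same structural superfamily as the VEGF ligands, named after its values were seen. It averaged 23.2 ± 2.62 CPM in KO and 10.5 ± 6.15 CPM in CTR (log2 fold change 1.16, SE 0.29, adjusted p = 0.0445). Leaving out any library but CTR 4 ended that call, with adjusted p up to 0.103, as did removing the filter (adjusted p = 0.0768), and without CTR 4 the adjusted p was 0.000735. Like Vegfa, Pdgfb was highest among controls in CTR 4.

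**Figure D5:**
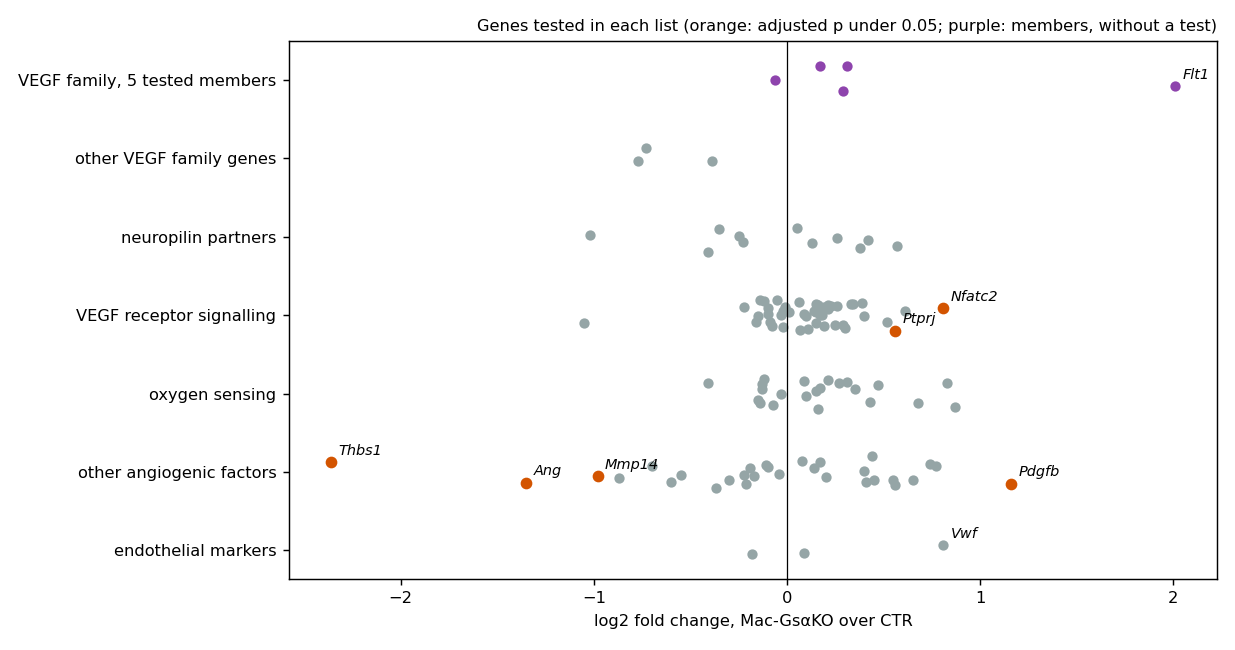
Log2 fold change (Mac-GsαKO over CTR, horizontal axis) of the genes tested in each list, 1 point per gene, with genes at an adjusted p under 0.05 in orange and the 5 members of the fit in purple without a test. Thbs1 at -2.36 is the lowest point, Flt1 at 2.01 the highest, and the signalling list has a median of 0.15.

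Because Flt1 is also an endothelial gene, markers of that and other cell types were read beside it. The 19 endothelial markers summed to 123 to 236 CPM in KO and 41.0 to 122 CPM in CTR, without overlap and nearly all from Vwf, which encodes von Willebrand factor. Vwf stood at 146, 119, 129, 121 and 232 CPM in KO 1 to KO 5, against 83.2, 95.5, 92.4, 118 and 35.4 CPM in CTR 1 to CTR 5. KO 5 had the highest and CTR 5 the lowest value of both Vwf and Flt1. The log2 fold change of Vwf was 0.81 (SE 0.28, adjusted p = 0.113). The 18 markers without Vwf summed to 2.64 to 4.20 CPM in KO and 1.34 to 5.60 CPM in CTR, the highest in CPM being Esam at 0.913 ± 0.171 CPM in KO and 0.863 ± 0.833 CPM in CTR. Emcn, Cldn5, Robo4, Sox17 and Mmrn2 had 0 counts in all 10 libraries, which allows up to 0.154 to 0.202 CPM per library. The part of Vwf-expressing cells in the Flt1 values was not tested.

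Over the 6 lists of other cell types, 1 marker was called by edgeR, the neutrophil gene S100a8, at 13.0 ± 2.26 CPM in KO and 19.1 ± 2.44 CPM in CTR (log2 fold change -0.56, SE 0.14, adjusted p = 0.0443). Tested were 3 endothelial, 9 mesothelial, 8 fibroblast and mural, 5 dendritic, 3 lymphoid (B, T and NK) and 3 neutrophil, mast cell and eosinophil markers. Of all genes tested, 3.94% were called, so nothing is read from this single call. No marker was called without KO 1, KO 2, KO 3, KO 4, CTR 1 or CTR 3. Mesothelial markers, led by Krt8 and Krt19, summed to 22.1 to 32.6 CPM in KO and 11.1 to 63.8 CPM in CTR. Fibroblast markers, led by Col1a2 and Dcn, summed to 53.4 to 71.5 CPM in KO and 35.4 to 151 CPM in CTR. These ranges overlapped, with the KO libraries inside the control range in both lists. Dendritic cell markers, led by Bst2 and Clec10a, summed to 89.9 to 120 CPM in KO and 101 to 190 CPM in CTR. B, T and NK cell markers, led by Cd4 and Cd79b, summed to 8.34 to 13.3 CPM in KO and 6.16 to 11.4 CPM in CTR. Neutrophil, mast cell and eosinophil markers, led by S100a8 and Cpa3, summed to 15.2 to 24.2 CPM in KO and 20.5 to 31.0 CPM in CTR, with Ly6g and Ngp at 0 counts throughout. Most of these sums came from S100a8, while S100a9 averaged 0.185 CPM in KO and 0.225 CPM in CTR. Of the 3 tested, S100a8 and Cpa3 had lower values in KO. The third, the neutrophil gene Ltf, had a log2 fold change of 0.66 (SE 0.31, edgeR adjusted p = 0.233). The part of these cell types in the members' values was not tested.

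Likeness to Flt1 was taken as Pearson's r of log2 CPM over the 10 libraries after removal of each genotype's mean, among 10146 genes, as a description of libraries that share depth and culture. Of these, 95 had r over 0.8. The highest were Dusp28 with 0.97, the integrin gene Itgax with 0.95, Elk4 with 0.92, Rnf103 with 0.92 and Msmo1 with 0.92. Over the 8 libraries without CTR 4 and CTR 5 these came to 0.90, 0.86, 0.89, 0.64 and 0.77 in the same order. Among the members, r with Flt1 was 0.59 for Vegfa, 0.47 for Vegfb, 0.25 for Nrp2 and 0.01 for Nrp1. No test of these relations was run.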

How the data were processed

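Per the labels' protocols, total RNA of peritoneal macrophages was taken up with an RNeasy kit for Illumina libraries. The authors deposited raw counts per Ensembl gene and FPKM values in the same table. Per the submitters' processing notes, CASAVA 1.8, HISAT2, SAMtools 1.3.1, edgeR and GRCm39 were used, with no role or order. For the counter, annotation, strand setting and other versions, nothing is stated in the sources used here. The deposited FPKM served to recover the gene length used by the authors.

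The deposited counts went into edgeR 4.0.16 (R 4.3.3): filterByExpr defaults (13203 genes, 99.9% of counts), TMM scaling, the two-sided quasi-likelihood test with genotype as the term, and Benjamini-Hochberg adjustment over all genes tested at 0.05. Standard errors came from dividing the size of the log2 fold change by the root of F. Level ratios had 0.5 counts added. A total of 53274 genes had a symbol. The procedure was tested on simulated data. Motifs were searched in RefSeq windows of 250 bases.

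Other settings were DESeq2 1.42.0 size factors and Wald test, library size only, no filter, a minimum CPM of 1 in 5 libraries, limma 3.58.1 voom with sample quality weights, a robust fit, the replicate number as a block, a gene length trend removed (mgcv 1.9.3), and libraries left out. The members and lists were chosen with earlier results of these data known. Rules named the members and 4 other family genes, Gnas, up to 3 called genes with the lowest p per pathway list or the 2 with the lowest p where none was called, the 2 most abundant markers per marker list, and the 5 genes most like Flt1. No libraries of a genotype agreed within sampling noise (chi-square per gene at least 14.4).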

Additional observations from a re-analysis of the deposited data

Results flagged for a closer look

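In 42 sets of 5 libraries, 2 held a library far from the others, and chance alone gives about 1 in 20. Nrp2 in KO 5 stood at 313 CPM, against 228 to 252 CPM in the other KO libraries, a gap of 0.72 of the whole range where 0.71 is the critical value. Pdgfb in CTR 4 stood at 21.2 CPM, against 5.64 to 9.04 CPM in the other CTR libraries, a gap of 0.781 of the range. Without CTR 4 the log2 fold change of Pdgfb had an adjusted p of 0.000735 by edgeR. Here CTR 4 was singled out by its Pdgfb value, so that p is no independent support. Over all genes, 868 were called without CTR 4, against 520 with all libraries.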

How the results depend on the processing

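The log2 fold changes of Flt1, Vegfa and Nrp1 kept their sign under all 20 other settings, while Vegfb ran from -0.10 to 0.04 and Nrp2 from -0.01 to 0.26. The calls moved more. Genes called higher and lower in KO numbered 241 and 279; they numbered 122 and 139 without a filter, 589 and 659 by DESeq2, 1026 and 894 by limma voom, 59 and 45 with the replicate block (100 of these 104 calls shared with the 520), and 694 and 491 without CTR 4 and CTR 5. Leaving out 1 library gave 32 to 484 higher and 30 to 384 lower, with the fewest without KO 2. Members called, 1 of 5, came to 2 (Flt1 and Vegfa) by limma voom and without CTR 4 and CTR 5, 0 with the block, and 0 to 2 with 1 library left out, counts from which nothing is read since the members were chosen on this contrast. Signalling genes called higher, 2, came to 1 with library size only, without a filter and with the block, 7 by DESeq2, 9 by limma voom, 5 without CTR 4 and CTR 5, and 0 to 5 with 1 library left out. Oxygen sensing genes called higher, 0, came to 1 with library size only, 2 by DESeq2, 4 by limma voom, 3 without CTR 4 and CTR 5, and 0 to 2 with 1 library left out; 1 was called lower by DESeq2 and with the length trend removed. Angiogenic factors called higher, 1, came to 0 without a filter and with the block, 3 by limma voom and without CTR 4 and CTR 5, and 0 to 3 with 1 library left out, where 1 to 3 were called lower. Neuropilin partners gave 1 call higher by limma voom and without CTR 4 and CTR 5. Markers of other cell types called, 1, came to 0 without a filter and with the block, 3 by DESeq2 and limma voom, and 0 to 1 with 1 library left out. The log2 ratio of Vegfb to Nrp2 reversed to -2.41 without division by length. With the longest transcript, a setting chosen after seeing the data, it was -0.02 (adjusted exact permutation p = 0.854), with no difference detected. The log2 ratio of Nrp1 to Vegfb was 0.32 to 0.47 with 1 library left out, 1.26 with the longest transcript and 2.77 without division by length. Likeness to Flt1 was 0.64 for Rnf103 and 0.77 for Msmo1 without CTR 4 and CTR 5. The causes were not tested. Equal replicate numbers did not deviate together (correlations of residuals -0.126 to 0.0582, 0 of 10 libraries closest to their own number), so the block pairs libraries by number only. With it the log2 fold change of Flt1 was 2.09, and Ptprj, Mmp14 and Pdgfb had adjusted p of 0.0687, 0.0682 and 0.0563. Depth limits Pgf, with 50 counts in all, and Flt1 in CTR, with 6 to 41 counts per library.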

Other observations

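The PDGF ligands share the cystine-knot fold of the VEGF ligands. Beside Pdgfb, Pdgfa averaged 37.7 ± 7.07 CPM in KO and 40.3 ± 9.01 CPM in CTR (SD, n = 5 each; log2 fold change -0.10, SE 0.17, edgeR adjusted p = 0.768). Pdgfc averaged 14.2 ± 2.84 CPM in KO and 16.3 ± 4.38 CPM in CTR (log2 fold change -0.19, SE 0.20, adjusted p = 0.601). Pdgfd had at most 0.125 CPM in any library. Hgf, a growth factor for endothelial and epithelial cells, averaged 15.5 ± 1.28 CPM in KO and 14.0 ± 5.58 CPM in CTR (log2 fold change 0.14, SE 0.26, adjusted p = 0.777).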
